A study of Mus musculus with 9 samples.

Results

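T cell content of mouse mammary tumours was described from 10 genes of T cells and of cytotoxic lymphocytes, out of 18484 genes counted by RNA-seq in 9 tumours. The 10 genes were listed by symbol, with no measured value in the rule: Cd3d, Cd3e and Cd3g, Cd4 and Cd8a, Gzmb and Prf1, and Foxp3, Ctla4 and Pdcd1. All tumours came from BlgCre-NeuKI mice on a mixed FVB/C57Bl6 background, which were heterozygous for both alleles. NeuKI is an activated rat Erbb2 orthologue knocked into the endogenous Erbb2 locus behind a floxed stop cassette, and BlgCre is a Cre driven by the Beta-lactoglobulin promoter, which acts mainly in luminal cells of the mammary gland. Of the epithelial tumours, 5 had high amplification of the Erbb2/Neu locus by quantitative PCR and were adenocarcinomas of no special type, AC(NST). The paper reports discordant results for MS1213.1 and MS1218.2, which scored low by droplet digital PCR. Exome data gave MS1213.1 as amplified and MS1218.2 as not amplified. MS1218.2 was also the only exception to the high tumour cell purity that the paper estimated. MS1218.2 and MS1155.3 grew in parous mice and MS1213.1, MS1163.2 and MS1163.1 in virgin mice. The other 3 epithelial tumours were not/low-amplified and from parous mice: MS1349.1 and MS1210.1 were metaplastic adenosquamous carcinomas (ASQC) and MS1166.1 was an AC(NST). A mammary sarcoma, MS1156.1, was not/low-amplified and also from a parous mouse. Each tumour was 1 frozen piece of tissue and 1 library, and MS1163.1 and MS1163.2 carry the same mouse number although the design text gives a mouse to each tumour.

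T cells recognise peptides through a T cell receptor that signals only as part of the CD3 complex, whose gamma, delta and epsilon chains are encoded by Cd3g, Cd3d and Cd3e. The co-receptor CD4 marks helper and regulatory T cells and CD8 marks cytotoxic T cells, which kill target cells by releasing perforin (Prf1) and granzymes such as granzyme B (Gzmb). Foxp3 is the transcription factor of regulatory T cells, and Ctla4 and Pdcd1 (PD-1) encode inhibitory receptors that restrain T cell responses. Some of these genes are not exclusive to T cells: natural killer cells use Gzmb and Prf1, and some myeloid cells carry CD4. In human breast cancer, T cell infiltration is commonly scored in HER2-positive tumours.

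The 3 Cd3 genes lie side by side on chromosome 9. In the GENCODE M21 annotation (GRCm38), Cd3g occupies chr9:44969572-44980431 on the minus strand, Cd3d chr9:44981786-44987339 on the plus strand and Cd3e chr9:44998740-45009627 on the minus strand, so that 1354 bases separate Cd3g from Cd3d and 11400 bases separate Cd3d from Cd3e. The 250 bases before the start of each Cd3 gene are printed because these neighbours serve 1 receptor complex, and those of Gzmb because its values stood apart from theirs. The sequences are from RefSeq (GRCm38.p6), in which 9 of the 10 genes were matched, and are given 5′ to 3′ on the strand of the gene. They are chr9:44980432-44980681 for Cd3g (minus strand), chr9:44981536-44981785 for Cd3d (plus strand), chr9:45009612-45009861 for Cd3e (minus strand) and chr14:56262335-56262584 for Gzmb (minus strand). Capitals mark matches to an E-box (CANNTG, bound by E proteins), to the core letters of RUNX sites (TGTGGT) or to core letters of ETS sites (GGAAGT), each searched on both strands, and no matches overlapped in these 4 windows.
Cd3g: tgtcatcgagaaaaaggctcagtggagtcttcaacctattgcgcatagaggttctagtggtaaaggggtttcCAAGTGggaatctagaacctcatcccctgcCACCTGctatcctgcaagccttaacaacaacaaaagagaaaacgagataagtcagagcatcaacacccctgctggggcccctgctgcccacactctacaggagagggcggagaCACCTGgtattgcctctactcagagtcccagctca
Cd3d: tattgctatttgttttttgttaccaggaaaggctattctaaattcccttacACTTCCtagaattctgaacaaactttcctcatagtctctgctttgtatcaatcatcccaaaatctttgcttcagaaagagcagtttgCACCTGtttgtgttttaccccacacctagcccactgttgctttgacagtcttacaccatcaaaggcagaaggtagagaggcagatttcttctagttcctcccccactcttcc
Cd3e: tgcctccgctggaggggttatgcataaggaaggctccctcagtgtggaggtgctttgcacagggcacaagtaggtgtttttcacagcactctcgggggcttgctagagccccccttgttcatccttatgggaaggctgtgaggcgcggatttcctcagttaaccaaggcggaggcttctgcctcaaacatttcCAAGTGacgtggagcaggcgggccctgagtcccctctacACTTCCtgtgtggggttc
Gzmb: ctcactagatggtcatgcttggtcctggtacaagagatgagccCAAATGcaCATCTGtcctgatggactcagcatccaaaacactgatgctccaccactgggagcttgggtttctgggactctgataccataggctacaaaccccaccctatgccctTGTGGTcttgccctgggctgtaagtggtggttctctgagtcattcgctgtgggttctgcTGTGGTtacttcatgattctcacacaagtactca
The Cd3g window held 3 E-boxes and the Cd3d and Cd3e windows 1 E-box and 1 ETS match each. The Gzmb window held 2 E-boxes and 2 RUNX matches, at 93 and 34 bases before the start. Of all 32851 windows of this length, 66.2% held an E-box, 14.0% the RUNX letters and 19.7% the ETS letters, and a match of letters does not show that a factor binds there.

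The libraries held between 12501225 and 23912429 counts on genes, with the ASQC tumours deepest. Values below are counts divided by a size factor per tumour (normalized counts) unless CPM (the usual counts-per-million scale) is named. Erbb2 checked the labels: it had 5284 to 105019 normalized counts in the high-amplified tumours, 1532 to 2783 in the not/low-amplified epithelial tumours and 1177 in the sarcoma. Summed over 6 epithelial markers, the epithelial tumours held 29677 to 107480 normalized counts and the sarcoma 455. MS1218.2 stood apart in its stroma, with 93146 normalized counts over 10 macrophage markers against 10943 to 28140 in the other tumours.

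T cell transcripts were sparse in every tumour. The 10 genes together collected 1299 counts over the 9 tumours, no gene had more than 95 counts in a tumour, and 53 of the 90 values of a gene in a tumour were below 10 counts, 11 of them 0. In CPM per kilobase of exon, over the 8 epithelial tumours, Cd4 had the highest mean level at 0.629 ± 0.441 (SD, n = 8), Gzmb 0.572 ± 0.879 and Pdcd1 0.498 ± 0.432. Cd3d, Ctla4, Cd8a, Cd3g and Cd3e followed between 0.262 ± 0.213 and 0.211 ± 0.171, and Prf1 at 0.133 ± 0.100 and Foxp3 at 0.117 ± 0.147 were lowest. Neighbours in this order differed by less than their spread over tumours. The place of Gzmb rests on MS1349.1, without which its mean was 0.271 ± 0.237 (n = 7), below the 0.507 ± 0.466 of Pdcd1.

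**Figure D1:**
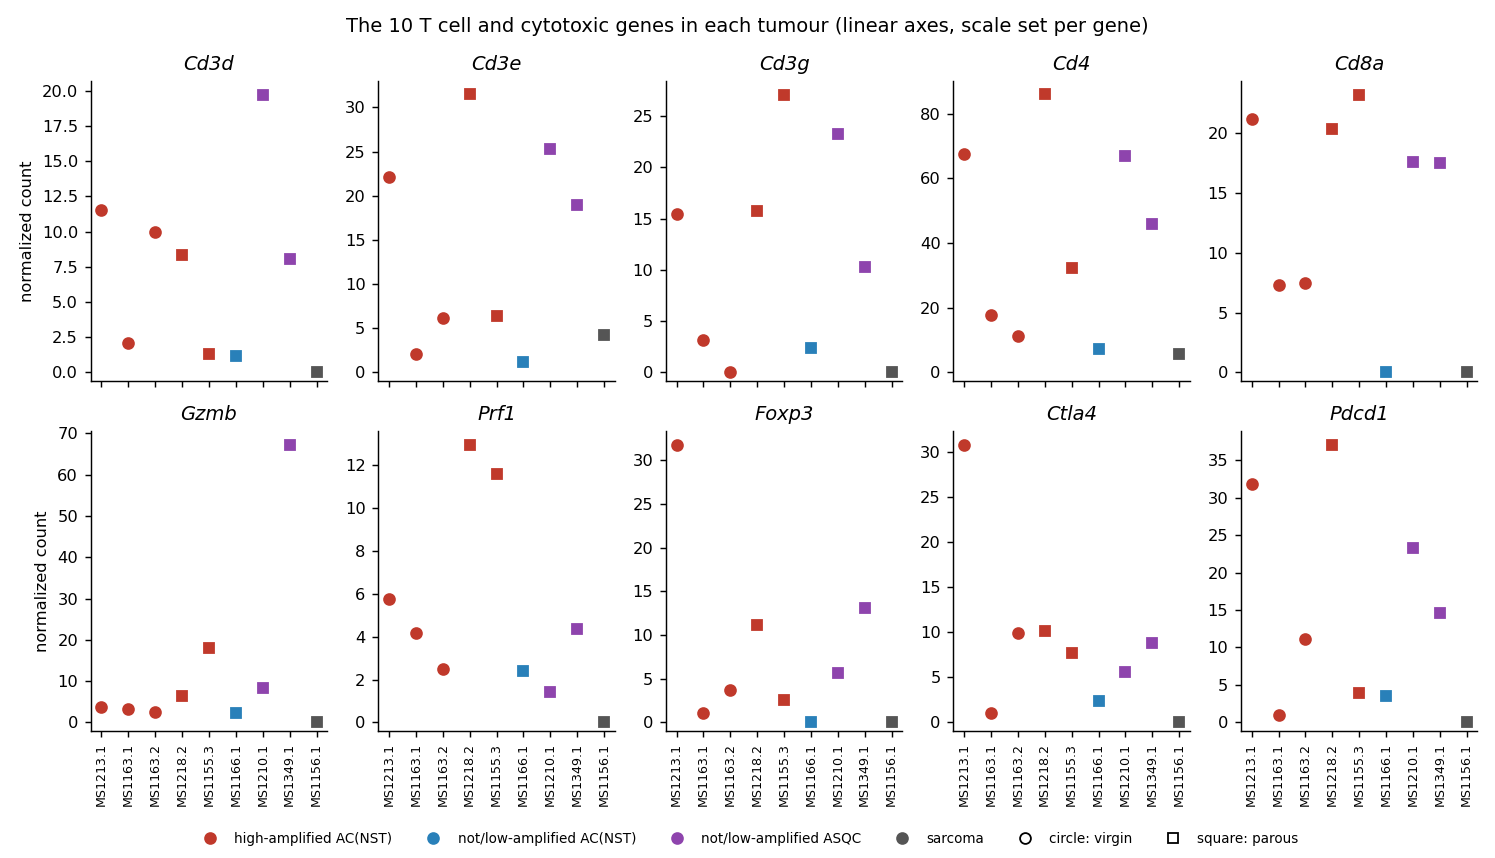
Normalized count of each of the 10 genes (y axis, linear, its scale set per gene) in each of the 9 tumours (x axis), with 1 point per tumour, coloured by class and shaped by parity. For Cd4, MS1213.1, MS1218.2 and MS1210.1 lie between 66.8 and 86.1 and MS1166.1 and the sarcoma at 7.14 and 5.58; for Gzmb, MS1349.1 lies alone at 67.2.

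The Cd3 genes varied between tumours within both amplification classes, and did not always vary together. Among the high-amplified tumours, Cd3e had 31.5 normalized counts in MS1218.2, 22.1 in MS1213.1, 6.44 in MS1155.3, 6.21 in MS1163.2 and 2.10 in MS1163.1. Among the not/low-amplified epithelial tumours it had 19.0 in MS1349.1, 25.3 in MS1210.1 and 1.19 in MS1166.1. MS1213.1, MS1218.2 and both ASQC tumours were thus higher and the other epithelial tumours lower, and the amplification groups overlapped. With the tumours of each class in the same order, as in the lists of values that follow, Cd3d had 8.33, 11.6, 1.29, 9.94 and 2.10 normalized counts in the high-amplified tumours and 8.04, 19.7 and 1.19 in the not/low-amplified ones. Cd3g had 15.7, 15.4, 27.1, 0 and 3.15 in the high-amplified tumours and 10.2, 23.2 and 2.38 in the not/low-amplified ones. MS1155.3 therefore had the most Cd3g and nearly the least Cd3d among epithelial tumours, and MS1163.2 had 8 counts of Cd3d but none of Cd3g. Cd3e shares 135 exon bases with Gm48719, an antisense-class gene on the opposite strand, and it is not known whether reads were counted by strand, so that some of its few counts cannot be assigned with certainty. In MS1163.2, 0 counts allow up to 0.240 CPM of Cd3g, taking 3 counts as the limit.

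Cd4 was the most abundant of the 10 genes by count in 6 of the epithelial tumours. It had 86.1, 67.4, 32.2, 11.2 and 17.8 normalized counts in the high-amplified tumours and 46.0, 66.8 and 7.14 in the not/low-amplified ones, with MS1218.2, MS1213.1 and MS1210.1 highest. Cd8a had 20.4, 21.2, 23.2, 7.46 and 7.35 in the high-amplified tumours, 17.5 and 17.6 in the ASQC tumours and 0 in MS1166.1. Cd8a thus spanned a narrower range than Cd4 in the tumours that had it, and MS1155.3, moderate in Cd4, had the highest Cd8a. The absence of Cd8a counts in MS1166.1 allows up to 0.197 CPM, and at this depth a low level there was not detectable.

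The cytotoxic effectors did not follow the CD3 chains closely. Gzmb had 6.48, 3.85, 18.0, 2.49 and 3.15 normalized counts in the high-amplified tumours and 67.2, 8.44 and 2.38 in the not/low-amplified ones. MS1349.1 held 92 of the counts of Gzmb while no other tumour had more than 14, and its 2 cytotoxic genes made up 34.3% of its counts for the 10 genes (Wilson 95% interval 29.0% to 39.9%). In MS1213.1, which had as many Cd3 counts (51), they made up 3.98% (2.18% to 7.18%). Prf1 had 13.0, 5.78, 11.6, 2.49 and 4.20 normalized counts in the high-amplified tumours and 4.38, 1.41 and 2.38 in the not/low-amplified ones. The tumour with the most Gzmb, MS1349.1, thus had only 6 counts of Prf1, and MS1218.2 had the most Prf1 with 14 counts.

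All granzyme genes and natural killer receptor genes of the list were read beside Gzmb after their values were seen. Over the epithelial tumours, 5 of the 9 granzyme genes counted were highest in MS1349.1 and 4 in other tumours. Gzma, which encodes granzyme A, had 95 normalized counts in MS1349.1 and 2.11 to 21.3 in the other epithelial tumours. Gzmc had 35.1 in MS1349.1 and 0 to 19.4 in the others. Gzmf and Gzmk were also highest there, but only at 11 and 2.92, with the next tumours at 9.52 and 2.11. Gzmd and Gzme were highest in MS1218.2, at 42.6 and 32.4 against 12.4 and 3.65 in MS1349.1, and Gzmg was highest in MS1166.1, at 16.7 against 1.46. Gzmm had 10.2 in MS1349.1, the lowest value of all tumours, up to 32.4 in the other epithelial tumours and 48.8 in the sarcoma. The high granzyme level of MS1349.1 was thus that of Gzmb and Gzma, with Gzmc less far above the next tumour, and not of the family. Gzmc, Gzmd, Gzme, Gzmf and Gzmg are close paralogs, so that the split of reads among them is uncertain.

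Srgn, which encodes serglycin, the proteoglycan that holds granzymes in granules and is made by many blood cells, had 3616 normalized counts in MS1349.1 and 207 to 1575 in the other epithelial tumours. Nkg7, a granule membrane gene of cytotoxic cells named after its values were seen, had 17.5 in MS1349.1 and 18.3 in MS1213.1. Of 6 receptor genes of natural killer cells, Klrk1 (31.4, next 25) and Klrc1 (11, next 9.02) were highest in MS1349.1 among the epithelial tumours. Klrd1, Ncr1, Klrb1c and Klre1 were highest in other tumours, at 14.4, 10.2, 17.4 and 6.44, beside 8.04, 2.92, 12.4 and 2.92 in MS1349.1.

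**Figure D2:**
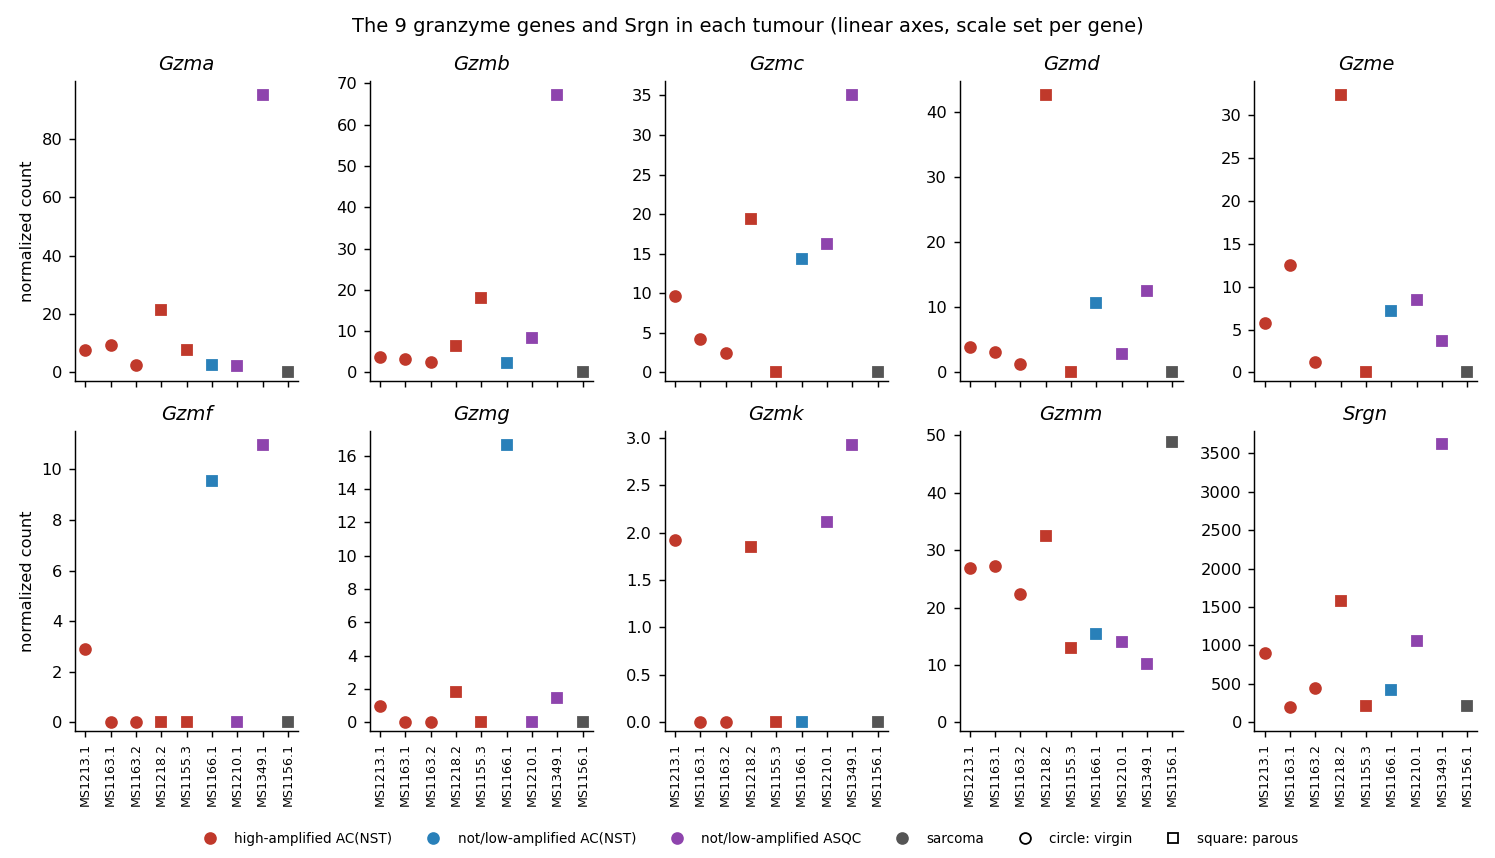
Normalized counts of 9 granzyme genes and Srgn (y axes, linear, a scale per gene) in each tumour (x axis), 1 point per tumour, coloured by class and shaped by parity. MS1349.1 is highest for Gzma (95, next 21.3), Gzmb (67.2, next 18.0), Gzmc (35.1, next 19.4) and Srgn (3616, next 1575). Gzmd and Gzme peak in MS1218.2 (42.6 and 32.4), Gzmg in MS1166.1 (16.7) and Gzmm in the sarcoma (48.8).

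Foxp3 and Ctla4 were highest in MS1213.1, a virgin high-amplified tumour. Foxp3 had 11.1, 31.8, 2.58, 3.73 and 1.05 normalized counts in the high-amplified tumours and 13.2, 5.63 and 0 in the not/low-amplified ones. In raw counts MS1213.1 had 33 of Foxp3 beside 70 of Cd4, and MS1210.1 had 8 beside 95. Foxp3 shares exon positions with Ccdc22 (590 bases) and Ppp1r3f (266 bases) on the opposite strand and with the antisense-class transcript Flicr (853 bases). Some of these few counts can therefore not be assigned with certainty either. Ctla4 had 10.2, 30.8, 7.73, 9.94 and 1.05 in the high-amplified tumours and 8.77, 5.63 and 2.38 in the not/low-amplified ones, again highest in MS1213.1. Pdcd1 had 37.0, 31.8, 3.86, 11.2 and 1.05 in the high-amplified tumours and 14.6, 23.2 and 3.57 in the not/low-amplified ones, and so was high in MS1218.2 and MS1210.1 as well. Foxp3, Ctla4 and Pdcd1 together made up 39.0% of the counts of the 10 genes in MS1213.1 (33.2% to 45.2%), 24.3% in MS1218.2 (19.5% to 29.9%) and 17.5% in both ASQC tumours (13.5% to 22.4% in MS1210.1).

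Summed over the 10 genes, the level varied widely within both amplification classes, whose ranges overlapped. It was 15.7 CPM in MS1213.1 (Wilson 95% interval 13.8 to 17.7), 14.1 in MS1218.2 (12.5 to 16.0), 12.0 in MS1349.1 (10.7 to 13.4) and 11.8 in MS1210.1 (10.5 to 13.3). It was 8.17 CPM in MS1155.3 (6.74 to 9.89), 4.16 in MS1163.2 (3.17 to 5.45), 2.74 in MS1163.1 (2.02 to 3.72) and 1.24 in MS1166.1 (0.797 to 1.94), and 0.536 in the sarcoma (0.260 to 1.11). These intervals cover counting error only. Neighbours in this order had overlapping intervals except at the steps from MS1210.1 to MS1155.3, from MS1155.3 to MS1163.2 and from MS1163.1 to MS1166.1. The span over the epithelial tumours was 12.6-fold, from a virgin high-amplified to a parous not/low-amplified tumour of the same histotype. By class, the mean was 8.97 ± 5.79 CPM in the high-amplified tumours (SD, n = 5) and 8.34 ± 6.14 in the not/low-amplified epithelial tumours (n = 3), 11.9 ± 0.105 in ASQC (n = 2) and 7.69 ± 6.06 in AC(NST) (n = 6), and 7.52 ± 7.09 in virgin (n = 3) and 9.46 ± 5.07 in parous epithelial tumours (n = 5). Both ASQC tumours lay inside the range of the AC(NST) tumours, 1.24 to 15.7 CPM. In bulk tissue, fewer T cells and less of these RNAs per T cell cannot be told apart.

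**Figure D3:**
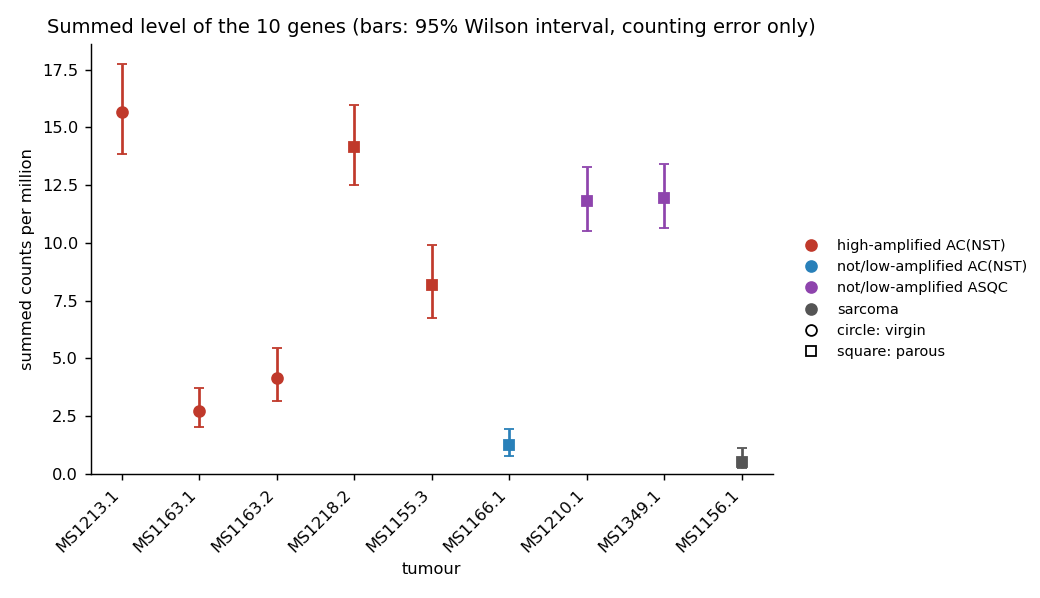
Summed CPM of the 10 genes (y axis, from 0) in each tumour (x axis), 1 point per tumour, with Wilson 95% intervals that cover counting error only. The high-amplified tumours spread from 2.74 to 15.7 and enclose both ASQC tumours at 11.8 and 12.0, and MS1166.1 and the sarcoma are lowest at 1.24 and 0.536.

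Ptprc, which encodes the leukocyte antigen CD45, was set beside this level as a single marker of leukocytes. It had 1614, 2196, 1711, 1683 and 762 normalized counts in the high-amplified tumours, 1639, 2303 and 208 in the not/low-amplified ones and 617 in the sarcoma. The summed T cell level was 14.9%, 11%, 7.83%, 3.84% and 5.65% of Ptprc in the high-amplified tumours, 12.8%, 8.55% and 10.9% in the not/low-amplified ones and 1.58% in the sarcoma. MS1166.1, the lowest epithelial tumour by T cell level, was thus also lowest in Ptprc, and its ratio to Ptprc lay inside the range of the others, whereas MS1163.2, with 1683 of Ptprc, had the lowest ratio of the epithelial tumours. MS1218.2, with the highest ratio, was mid-range in Ptprc but not in the sum of 9 pan-leukocyte genes. That sum was 16894 normalized counts in MS1218.2 and 1504 to 8653 in the other epithelial tumours. The order of these ratios therefore holds for Ptprc only and not for leukocytes in general.

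In the sarcoma, only Cd4 (4 counts) and Cd3e (3 counts) were seen, and the other 8 genes were at 0. A count of 0 allows up to 4.19 normalized counts there. Against that limit, the epithelial mean of Pdcd1 was at least 3.77-fold higher (15.8 ± 13.6, SD, n = 8), that of Cd8a at least 3.42-fold, that of Gzmb at least 3.35-fold and that of Prf1 at least 1.35-fold, but MS1166.1 was also at or below this limit for each of them. Of the 8 epithelial tumours, 5 lay above the limit for Pdcd1 and for Prf1, 7 for Cd8a and 4 for Gzmb. Without MS1349.1 the epithelial mean of Gzmb was at least 1.53-fold higher. The sarcoma was 1 tumour and was not tested. It was not without leukocytes, since macrophage markers summed to 10943 normalized counts, close to the 11207 of MS1163.1.

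The RNA-seq data were collected to ask which of reproductive history, diagnosis and amplification separated the tumours most. The 10 genes were compared between amplification classes, histotypes and parity groups with edgeR's quasi-likelihood test across all 14007 genes with 10 or more counts in 3 or more epithelial tumours. A call required a log2 fold change beyond 1 and a Benjamini-Hochberg adjusted p below 0.05. Prf1 did not pass this filter, and the other 9 genes were tested. Gzmb passed it only through MS1349.1, MS1155.3 and MS1210.1 (92, 14 and 12 counts), which are all parous. They include both ASQC tumours, which are not/low-amplified. Cd3d passed it only through MS1210.1, MS1349.1 and MS1213.1 (28, 11 and 12 counts). Foxp3 and Ctla4 passed it only through MS1213.1, MS1218.2 and MS1349.1. The differences of these genes between the groups are therefore not independent of the filter. The groups are entangled: all virgin tumours were high-amplified and both ASQC tumours were parous and not/low-amplified, so that amplification, parity and histotype cannot be told apart for the differences given here.

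Between high-amplified and not/low-amplified tumours, 0 of the 9 tested genes were called by edgeR, against 0.921% of all genes, and 0 of the 9 had an unadjusted p under 0.05. DESeq2 and limma called 0 as well. None of the 10 genes had groups that did not overlap, against 15.6% of all genes tested. On the log2 scale, high-amplified minus not/low-amplified, the CD3 chains differed by -0.54 (Cd3d), -0.14 (Cd3e) and 0.03 (Cd3g), with standard errors between 0.92 and 1.10. Cd4 differed by 0.11 (95% interval -1.79 to 2.02), Cd8a by 0.42 (-1.73 to 2.58), Foxp3 by 0.66 (-2.06 to 3.39), Ctla4 by 1.07 (-1.01 to 3.16) and Pdcd1 by 0.30 (-2.0 to 2.61). Gzmb differed by -1.94 (-4.25 to 0.36, adjusted p = 0.290). The tumours that brought Gzmb past the filter include both ASQC tumours, which are not/low-amplified, so that this direction was favoured in advance. The median of the 9 genes was 0.11 and that of all genes tested 0.02. The intervals are wide, and none is narrow enough to show that the groups were alike: each reached a log2 difference of at least 2 in 1 direction or the other.

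Between ASQC and AC(NST) tumours, 0 of the 9 genes were called by edgeR, against 0.236% of all genes, and Gzmb alone had an unadjusted p under 0.05. DESeq2 and limma also called 0, with 1 and 0 genes at an unadjusted p under 0.05. None of the 10 genes had groups that did not overlap, against 10.3% of all genes. Gzmb was higher in ASQC on the log2 scale by 2.64 ± 0.93 (SE, 95% interval 0.56 to 4.72, adjusted p = 0.466), with means of 37.8 ± 41.6 normalized counts in ASQC (SD, n = 2) and 6.06 ± 6.05 in AC(NST) (n = 6). An exact permutation test of log2 values gave a two-sided p of 0.0714 for Gzmb, where the smallest possible is 0.0357. This difference rests on MS1349.1: the other ASQC tumour had 8.44 and MS1155.3, an AC(NST), had 18.0. Both ASQC tumours were also among the few that brought Gzmb past the filter, which favoured this direction in advance. Cd3d differed by 1.24, Cd3e by 0.90, Cd3g by 0.64, Cd4 by 0.59, Cd8a by 0.39, Pdcd1 by 0.34, Foxp3 by 0.13 and Ctla4 by -0.53, each with an interval that includes 0. The median of the 9 genes was 0.59 beside -0.08 for all genes tested, and 8 of 9 estimates were above 0 beside 6292 of 14007 among all genes. Cd3d, like Gzmb, passed the filter with the help of both ASQC tumours, whose libraries were also the deepest. The 9 sparse genes were read in the same tumours, so that this count of estimates is not a test of T cell content.

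Between virgin and parous tumours, edgeR called 0 of the 9 genes and 0% of all genes, and Gzmb alone of the 9 had an unadjusted p under 0.05. DESeq2 and limma called 0 of them too. None of the 10 genes had groups that did not overlap, against 9.25% of all genes. Gzmb was lower in virgin tumours on the log2 scale by a difference of -2.66 (95% interval -5.25 to -0.07, adjusted p = 0.348): the virgin tumours had 2.49 to 3.85 normalized counts and the parous ones 2.38 to 67.2. Gzmb passed the filter through parous tumours only, which favoured this direction in advance. Cd3g differed by -1.29, Ctla4 by 1.0, Foxp3 by 0.89 and Cd3e by -0.71, and the other 4 genes by between -0.56 and -0.01, each with an interval that includes 0. Without MS1213.1, Cd3g differed by -3.18 (-6.32 to -0.03, adjusted p = 0.467), with 0 and 3.15 normalized counts in the remaining virgin tumours against the 15.4 of MS1213.1. These remaining tumours, MS1163.2 and MS1163.1, carry the same mouse number, so that this interval does not measure a spread between virgin mice. In that setting Cd3g also passed the filter only through parous tumours. The median of the 9 genes was -0.38 beside -0.10 for all genes tested. The same 8 tumours enter all 3 comparisons, so the values of Gzmb in them are not independent of each other.

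**Figure D4:**
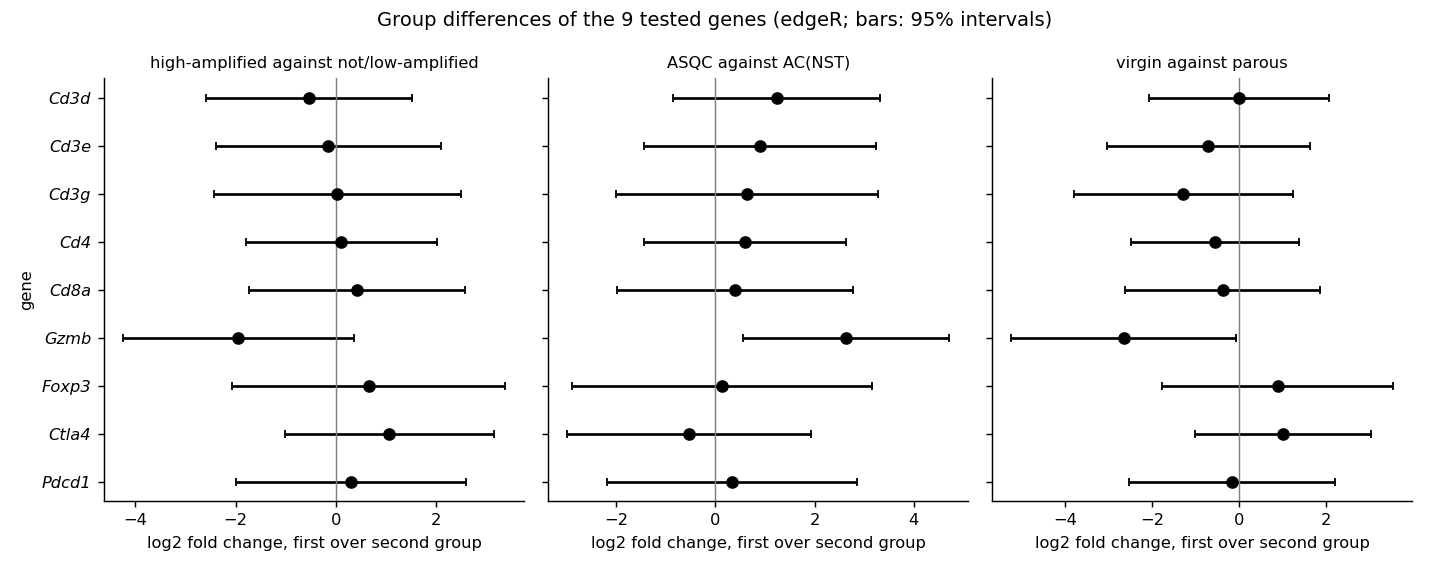
Log2 fold change (x axes) of the 9 tested genes (y axis) in the 3 comparisons, with 95% intervals from edgeR. The intervals of Gzmb leave out 0 for ASQC against AC(NST), at 2.64, and for virgin against parous, at -2.66, before adjustment over all genes, and the other intervals include 0. Gzmb passed the filter only through parous tumours, both ASQC tumours among them, so these intervals are not independent of the filter.

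Exact permutation tests of single genes, on log2 values and two-sided, covered all 10 genes, including Prf1. Prf1 had 7.40 ± 4.62 normalized counts in high-amplified tumours (SD, n = 5) and 2.72 ± 1.52 in not/low-amplified tumours (n = 3), with p = 0.125 by the exact permutation test, where the smallest possible is 0.0179. This was the smallest p of the 10 genes in that comparison. The smallest in the other comparisons were 0.0714 for Gzmb (histotype) and 0.161 for Gzmb (parity).

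Over the 8 epithelial tumours, the genes whose log2 values were most like the mean of the 3 Cd3 genes were Cacna1g (a T-type calcium channel gene, r = 0.98), Ppp2r5b (0.97), Slc15a1 (0.97), Fam124b (0.97) and Cd5 (0.96). Cd5, a surface receptor of T cells and of some B cells, had 40.4 normalized counts in MS1213.1, 38 in MS1210.1, 21.9 in MS1349.1, 21.3 in MS1218.2 and 2.38 to 7.46 in the other epithelial tumours. Among the members, Cd4 came nearest, at place 12 of 14004 genes (r = 0.94), followed by Pdcd1 (0.86), Foxp3 (0.84), Cd8a (0.78), Ctla4 (0.66) and Gzmb (0.43). Between members, Cd3e and Cd4 had r = 0.92 and the neighbours Cd3d and Cd3g only 0.17. These correlations describe 8 points with sparse counts in shared libraries, and with the sarcoma added 0 of the 5 leading genes remained in the leading 5.

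Other genes of T cells were read from wider lists. Of 22 genes of the T cell receptor complex and T cell signalling outside the 10, 16 were tested; 1 was called lower and 0 higher in high-amplified tumours, with 12 of 16 estimates above 0 and a median of 0.42. Among all genes tested, 129 of 14007 were called, 7148 estimates were above 0 and the median was 0.02. For ASQC against AC(NST), 0 of the 16 were called, 8 estimates were above 0 and their median was -0.00037. For virgin against parous, 0 were called, 2 estimates were above 0 and their median was -0.30. The medians of all genes tested were -0.08 and -0.10 there, with 6292 and 6222 of 14007 estimates above 0. The called gene was Bcl11b, a transcription factor of T cells that squamous and basal epithelium also uses. Bcl11b had 27.3 to 77.1 normalized counts in the high-amplified tumours, 286 to 793 in the not/low-amplified ones and 2.79 in the sarcoma, and differed by -3.03 ± 0.45 (SE, log2, edgeR adjusted p = 0.0287). The difference stayed between -3.29 and -2.46 over all alternatives. The call was lost without MS1213.1, MS1163.1, MS1163.2, MS1155.3 or MS1210.1 (adjusted p at most 0.0926), with parity as covariate (0.185), in AC(NST) alone (0.0957) and with the sarcoma included (0.348). Its level did not run with that of the Cd3 genes in every tumour. MS1210.1 was highest in both, with 793 normalized counts of Bcl11b and 68.2 of the 3 Cd3 genes together. MS1166.1 had 350 of Bcl11b and only 4.76 of the 3 Cd3 genes together. Lck, the kinase that starts receptor signalling, was highest in MS1166.1 at 126, against 4.97 to 41.7 in the other epithelial tumours. It was named after its values were seen. The most abundant genes of the list were Thy1, at 960 in MS1218.2 and 545 in the sarcoma, and Lcp2, at 766 in MS1218.2; both are also used outside T cells.

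Of 22 further cytotoxic and natural killer genes, 10 were tested and 0 called in any of the 3 comparisons. Their median log2 difference was 0.70 for ASQC against AC(NST), with 7 of 10 above 0, beside -0.08 and 6292 of 14007 for all genes tested. It was 0.03 for amplification, with 5 of 10 above 0, and -0.30 for parity, with 4 of 10. The medians of all genes tested were 0.02 and -0.10 there. Serpinb9, an inhibitor of granzyme B, was the second most abundant after Srgn, at 171 to 406 normalized counts in the epithelial tumours. Of 18 regulatory and checkpoint genes, 14 were tested and 0 called, with medians of 0.03, 0.54 and -0.45 for amplification, histotype and parity, beside 0.02, -0.08 and -0.10 for all genes tested. Ikzf2, a regulatory T cell factor with other sources, had 1094 in MS1213.1 and 207 in MS1218.2, and Tgfb1, a cytokine gene of many cells, had 1273 in MS1218.2; neither followed Foxp3. Of 10 chemokine and receptor genes that guide T cells, 8 were tested and 0 called. Among all genes tested, 0.921% were called for amplification, 0.236% for histotype and 0% for parity, so that 0 calls in lists this short say little. Cxcl16 had 1904 in MS1166.1, which had the least T cell signal of the epithelial tumours, and 305 to 1892 in the others.

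Of the most abundant markers of other leukocytes, Lyz2, the lysozyme gene of macrophages, had 37014 normalized counts in MS1218.2 and 1860 to 8544 in the other epithelial tumours, and Cd14, a macrophage receptor, 940 to 6487. Laptm5, a lysosomal gene of leukocytes, had 5165 in MS1218.2 and 284 to 1473 in the others. Cd37 and Cd22, surface genes of B cells, had 297 and 192 in MS1218.2 and at most 77.4 and 73.1 in the others, and these genes are also found in some myeloid cells. MS1218.2 thus had the most Lyz2, Laptm5, Cd37 and Cd22, while its Cd3 genes did not exceed those of MS1210.1 in sum (55.5 against 68.2). Itgax, a dendritic cell integrin, had 1461 in MS1210.1 and 66.6 in MS1166.1, and Zbtb46, a factor of dendritic cells and endothelium, 52.3 to 305. Xbp1 and Prdm1, secretory cell factors listed for plasma cells, had 4256 to 23504 and 163 to 1070. Kit and Hdc, listed for mast cells, had 4157 to 17428 and 10.5 to 182, Kit also being a luminal epithelial gene. The mast cell genes Cpa3, Mcpt4, Tpsb2 and Cma1, named after their values were seen, followed neither. They were higher in high-amplified than in not/low-amplified tumours by 2.60 to 3.55 (log2, edgeR), although none was called. Kit differed by 0.13 and Hdc by -1.46. Each of Cpa3, Mcpt4, Tpsb2 and Cma1 had at most 0.703 normalized counts in MS1210.1 and was highest in the sarcoma. S100a8 and Mmp9, listed for neutrophils, had 2322 and 1601 in MS1210.1, the highest values of both. Krt8 and Krt18, luminal keratins, had 176 and 134 in the sarcoma and at least 7841 and 4151 in the epithelial tumours, and the collagen genes Col1a1 and Col3a1 had 127713 and 268353 in the sarcoma and 139921 and 122858 in MS1218.2. Cxcl13, a chemokine gene listed for lymph nodes, was highest in MS1349.1 at 72.3.

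Markers of other cells that the tissue could hold were counted in the same tumours. Of 9 pan-leukocyte genes 9 were tested, of 10 macrophage genes 10, of 8 dendritic cell genes 8, of 8 mast cell genes 6, of 9 B cell genes 3, of 6 plasma cell genes 4, of 10 lymph node genes 4, of 6 epithelial genes 6 and of 8 mesenchymal genes 8, and 0 were called in the 3 comparisons. Among all genes tested, 0.921% were called for amplification, 0.236% for histotype and 0% for parity. At these shares, 0 calls in lists this short do not show that the cell types were alike between groups. Of 8 neutrophil genes, 6 were tested. S100a9, a gene of neutrophils that squamous cells also express, was called higher in ASQC (4.72 ± 0.75, SE, log2, edgeR adjusted p = 0.0431). The call was lost in limma (adjusted p = 0.126) and when any tumour other than MS1166.1 was left out. The difference of S100a9 stayed between 4.34 and 5.11 over all alternatives, with an adjusted p of at most 0.281. S100a9 had 601 and 961 normalized counts in the ASQC tumours and 4.20 to 65.4 in the AC(NST) tumours. Lymph node markers, which could bring T cells with them, summed to 12.6 to 266 normalized counts and were highest in MS1349.1 and lowest in MS1163.1; the chemokine gene Ccl21a had 34.3 in MS1349.1 and at most 3.85 in the other epithelial tumours, and Madcam1 at most 2.10. The B cell receptor gene Cd79a had at most 5.11 in the epithelial tumours. Ccl21a, Madcam1 and Cd79a were named after their values were seen, and the part of these cells in the T cell values was not tested.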

How the data were processed

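Total RNA from 9 snap-frozen tumours was depleted of ribosomal RNA and sequenced from strand-specific libraries. The authors aligned paired reads with STAR, kept uniquely placed reads and counted them per gene with HTSeq; the strand setting and annotation release of the counting are not given in the sources used here. The deposited count values are whole numbers. The deposited signal values of the 8 epithelial tumours are those counts divided by the authors' median-of-ratios size factors (0.776 to 1.42): every value gave a whole count within 0.01. A factor for the sarcoma, 0.717, was computed here over 13764 genes above 0 in the 8 epithelial tumours. Depth was 12501225 to 23912429 counts.

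The 10 genes and 14 marker lists were chosen with earlier results of these data known. Comparisons used edgeR 4.0.16 (TMM, quasi-likelihood, no covariates) in R 4.3.3, with standard errors taken from the fold change and its F statistic. On simulated counts of 14007 genes for the amplification comparison, edgeR called 35 of 100 genes changed 4-fold and 87 of 100 changed 16-fold, with 2 false calls. DESeq2 made 38 false calls there and limma 3. The changed genes were drawn from all 14007, so that these shares need not hold for genes as sparse as the 10. Alternatives were DESeq2 1.42.0, limma 3.58.1 (pseudocount 1), no filter, median-of-ratios scaling, the tumours of 1 mouse summed, each tumour left out, and, for amplification, parity as covariate, AC(NST) alone and the sarcoma included. Named were the 10 genes, the 2 most abundant and any called genes of each list, and the 5 genes most like Cd3; others are marked, and some genes of the lists are not reported here. Of 18484 genes, 18420 were matched to GENCODE M21. Permutations and intervals used scipy 1.17.1, and figures matplotlib 3.10.9. No 2 libraries of a group agreed within sampling noise, and p-values measure the spread between these tumours.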

Additional observations from a re-analysis of the deposited data

Results flagged for a closer look

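Among 33 sets of 4 to 10 tumours tested for a sample far from the others (the 10 genes and their sum, each in the 3 classes of that size), 6 were picked out, in 4 genes. Chance would pick out about 1 in 20 if the values were normally distributed and the sets independent. Neither holds for these sparse counts in shared tumours, so that 6 of 33 cannot be set against that rate. Cd8a had 0 normalized counts in MS1166.1, where the nearest of the 5 parous epithelial tumours had 17.5. Gzmb had 18.0 in MS1155.3, with the nearest other high-amplified tumour at 6.48, among the 5 high-amplified tumours as well as among the 6 AC(NST) tumours. Gzmb had 67.2 in MS1349.1, where the nearest of the 5 parous epithelial tumours had 18.0. Foxp3 had 31.8 and Ctla4 had 30.8 in MS1213.1, with the nearest of the 6 AC(NST) tumours at 11.1 and 10.2. These sets share tumours, so the results for Gzmb are not independent of each other.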

How the results depend on the processing

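None of the 9 tested genes was called under any alternative in any comparison, and the smallest adjusted p of a member was 0.153 (Cd8a in AC(NST) tumours alone, against a single tumour at 0). Of 336 fold changes of members under alternatives, 295 kept their direction and 41 turned, in 12 of 27 results, all with a log2 difference of at most 0.64. For amplification, Cd3e became 0.067 with the tumours of 1 mouse summed, 0.32 with parity as covariate and 0.13 with the sarcoma included, and ranged from -0.70 to 0.44 with 1 tumour left out. In limma, Cd3g became -0.29 and Pdcd1 -0.14; leaving out 1 tumour, Cd3g ranged from -0.46 to 0.92, Cd4 from -0.38 to 0.71, Cd8a from -0.13 to 0.83 and Pdcd1 from -0.19 to 0.90. For histotype, Foxp3 became -0.039 with the tumours of 1 mouse summed and Ctla4 0.034 in limma; leaving out 1 tumour, Cd3g ranged from -0.089 to 1.14, Foxp3 from -0.13 to 0.59 and Pdcd1 from -0.066 to 0.85. For parity, Cd3d became 0.00071 in DESeq2, 0.29 in limma, 0.021 without the filter and 0.12 with the tumours of 1 mouse summed, Cd8a 0.049 in limma and Pdcd1 0.17 with the tumours of 1 mouse summed; leaving out 1 tumour, Cd3d ranged from -0.27 to 0.44, Pdcd1 from -1.46 to 0.38, Cd3e from -2.02 to -0.23, Cd3g from -3.18 to -0.73 and Cd4 from -1.72 to -0.15, the lowest value of the last 4 being that without MS1213.1. Without MS1213.1 the virgin tumours were MS1163.1 and MS1163.2, which carry the same mouse number. The causes of these changes were not tested. Gzmb kept its direction wherever it was tested, with adjusted p from 0.181 to 0.720, and without MS1349.1, MS1210.1 or MS1155.3 it no longer passed the filter.

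The counts of all genes called moved far more. For amplification, 129 became 1591 in DESeq2, 229 without the filter, 31 with the tumours of 1 mouse summed, 0 with parity as covariate (2051 at an unadjusted p under 0.05), 40 in AC(NST) alone and 3 with the sarcoma included, and ranged from 1 (without MS1210.1) to 1255 (without MS1218.2). For histotype, 33 became 518 in DESeq2, 14 in limma, 171 without the filter and 18 with the tumours of 1 mouse summed, and ranged from 4 (without MS1349.1) to 84 (without MS1166.1). For parity, 0 became 511 in DESeq2 and ranged from 0 to 147 (without MS1155.3). Bcl11b was called in 8 of 16 alternatives and S100a9 in 5 of 13, always in the same direction. Ranks of the tumours by the summed level were the same in CPM. Of the 5 genes most like Cd3, 2 stayed with Spearman's rho, 2 without MS1218.2 and 0 over 9 tumours. No paired analysis was possible because the labels give no replicate numbers shared between groups. Depth limits each value: 3 counts are 0.125 to 0.240 CPM.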
